A study of Mus musculus with 18 samples.

Results

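The genes described here are 9 markers of microglia and tissue macrophages: the surface receptors P2ry12, Cx3cr1, Csf1r, Trem2 and Siglech, the membrane protein Tmem119, and C1qa, C1qb and C1qc, which encode the chains of complement C1q. They were chosen by symbol, through the gene identifiers of the deposited tables, and all 9 were found among 46078 identifiers. The tables hold RNA sequencing of female mice in which the long noncoding RNA Xist, the RNA that silences an X chromosome in female cells, was deleted from both X chromosomes (mutants) or from one of them (controls). Brain, spleen and liver of postnatal day 1 were represented by 2 mutant and 2 control libraries each, and primary tail-tip fibroblasts in culture by 3 mutant and 3 control libraries, 18 libraries in all. By the labels the controls carried the deletion as well and kept 1 intact copy, whereas the deposited tables head the control columns WT. The labels were followed, and the files do not settle which of these genotypes the controls had. The series describes the replicates as biological, and gives no strain, extent of the deletion or age of the fibroblast donors.

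Microglia are the resident macrophages of the brain and, like most tissue macrophages, they depend on signals through the receptor Csf1r for their survival. Spleen and liver hold macrophages of their own, in the liver the Kupffer cells that line the sinusoids. C1q, the molecule that starts the classical complement pathway, is made largely by macrophages and microglia, whereas P2ry12, Tmem119, Siglech and Cx3cr1 are used to tell microglia from other macrophages in adult brain.

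Between mutants and controls none of the 9 genes passed the test in any tissue, where 0.0237% of all genes tested passed in brain and 0% in spleen, liver and fibroblasts. The widest difference was that of Cx3cr1, the receptor for the chemokine Cx3cl1. Its level was 1.93 ± 1.79 in mutant livers, against 8.64 ± 0.734 in control livers, 15.7 ± 1.90 in mutant spleens, against 30.4 ± 2.23 in control spleens, and 4.28 ± 0.941 in mutant brains, against 6.71 ± 0.634 in control brains (SD, n = 2 each). The mutants and controls overlapped in the 3 C1q genes in each organ. Set against Csf1r in the same library, P2ry12, Tmem119, Siglech and Trem2 stood higher in each brain library than in any library of spleen or liver. Csf1r itself was lower in brain, and as signal none of these genes averaged higher in control brain than in control spleen.

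Levels are in units of signal, which is a gene's count after the authors' scaling and lies close to reads per M reads of the library. Libraries held 12.4 M to 29.2 M reads in genes, so that 1 read was worth 0.0343 to 0.0751 of signal, and a gene without a read could have held up to 3 reads, a signal of 0.103 to 0.225 (95% limit, counting error only). In every tissue the mutants had less Xist than any of the controls. Its mean was 3.88 in mutant brains, against 674 in control brains, and 217 in mutant livers, against 662 in control livers. Limma called Xist in brain (adjusted p = 1.5e-08) and not in spleen (adjusted p = 0.14), liver (adjusted p = 0.45) or fibroblasts (adjusted p = 1.00), while DESeq2 called it in all 4. Transcripts of other cell types marked the tissues: the neuronal gene Snap25 ran from 194 to 224 in brain and was at most 0.751 elsewhere, and the Kupffer cell gene Clec4f ran from 45.7 to 72.3 in liver and was at most 0.826 elsewhere. The list of 11 Kupffer cell markers to which Clec4f belongs did not mark liver as a whole. It summed to 520 to 787 in liver libraries and 772 to 1042 in spleen libraries. The marginal zone gene Cd209b was at most 0.526 in spleen. Spleen mutant 1 and spleen control 1 carried albumin (Alb) transcripts at 264 and 192, against 9.49 in spleen mutant 2 and 3.40 in spleen control 2. Mutant 1 of the spleen also had reads in 32381 genes, more than the other 17 libraries.

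The promoters of 3 members that hold the letters GGAAGT are shown: C1qb and C1qc, 2 neighbouring genes of the same molecule, and P2ry12, the classical microglial marker. Those of Siglech, which also holds these letters, and of Trem2 and Cx3cr1, which do not, are not shown. Each sequence was read from the RefSeq promoter table for GRCm38.p6, 5′ to 3′ on the strand of the gene, and ends at the base before the RefSeq start or, for C1qc, before the first exon annotated by GENCODE. Capitals mark GGAAGT, the core letters bound by ETS factors such as PU.1, on either strand, or in C1qc the longer PU.1 letters GAGGAAGT, which contain that core.
C1qb, chr4:136886201-136886450, minus strand: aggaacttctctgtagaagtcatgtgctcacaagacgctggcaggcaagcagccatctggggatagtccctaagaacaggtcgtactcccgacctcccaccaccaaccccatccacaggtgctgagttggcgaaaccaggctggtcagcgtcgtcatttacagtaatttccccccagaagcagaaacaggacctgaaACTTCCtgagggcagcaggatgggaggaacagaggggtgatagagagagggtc
C1qc, chr4:136893066-136893164, minus strand: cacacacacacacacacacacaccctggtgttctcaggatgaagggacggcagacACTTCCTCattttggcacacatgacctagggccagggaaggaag
P2ry12, chr3:59262986-59263235, minus strand: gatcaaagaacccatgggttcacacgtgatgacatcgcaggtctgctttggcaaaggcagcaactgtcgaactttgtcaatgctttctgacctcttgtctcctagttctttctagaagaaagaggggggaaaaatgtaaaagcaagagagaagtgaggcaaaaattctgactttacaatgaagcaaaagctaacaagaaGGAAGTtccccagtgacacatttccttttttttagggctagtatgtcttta

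PU.1, encoded by Spi1, is a transcription factor of the macrophage lineage. Of the 9 members, 6 had an entry in the promoter table, and the 250 bases before the start were searched on both strands. Cx3cr1, whose window begins inside an exon annotated by GENCODE, and Trem2 held no GGAAGT. It was present in 4 of the 6 (P2ry12, C1qb, C1qc and Siglech), against 19.7% of all 32851 windows of that length. It stood 51 bases before the RefSeq start in P2ry12, 53 in C1qb, 195 in C1qc and 156 in Siglech. In C1qc the first exon of GENCODE begins upstream of the RefSeq start, so the site lies nearer to that exon. GAGGAAGT was present in C1qc alone, against 2.44% of all windows. The joint element of PU.1 and IRF factors (2.3% of windows) and the MAF half-site TGCTGAC (3.81% of windows) were in none of the 6. These are matches of letters and are given as a description.

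C1qb, the B chain of C1q, had a signal of 16.5 and 24.7 in mutant brains, against 12.9 and 17.9 in control brains. Mutant spleens had 150 and 317, against 169 and 219 in control spleens. Mutant livers had 125 and 188, against 140 and 134 in control livers. Every brain library thus lay below every spleen and liver library, and the mutant and control ranges overlapped in all 3 organs. In fibroblasts the 3 C1q genes had at most 10 reads each per library, and C1qc had none in any control.

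C1qa, the A chain, read 11.6 and 15.7 in mutant brains, against 9.50 and 14.8 in control brains. Mutant spleens had 96.4 and 190, against 102 and 130 in control spleens. Mutant livers had 84.8 and 118, against 92.5 and 84.7 in control livers. As for C1qb, the groups overlapped in each organ. C1qc, the C chain, read 15.0 and 21.2 in mutant brains, against 14.4 and 21.6 in control brains. Mutant spleens had 107 and 286, against 116 and 208 in control spleens, and mutant livers 99.7 and 182, against 112 and 141 in control livers. The 3 genes lie side by side on the minus strand of chromosome 4 in GRCm38, C1qb at chr4:136880129-136886187, C1qc at chr4:136889804-136893065 and C1qa at chr4:136895917-136898803. Their reads were split among the 3 genes in similar shares in the 12 organ libraries, although C1q reads per library ranged from 667 to 14794. C1qa took 23.3% to 27.4% of them, C1qb 33.0% to 43.7% and C1qc 30.0% to 39.8%. Within these ranges the shares of spleen and liver went with the replicate number in both genotypes. C1qc took 30.0% to 32.4% in the 4 libraries numbered 1 and 36.0% to 39.3% in the 4 numbered 2, and C1qa 26.3% to 27.4% in those numbered 1 and 23.3% to 24.3% in those numbered 2. In brain C1qc took 34.8% and 34.5% in mutants, against 39.1% and 39.8% in controls. In spleen the higher sample of each genotype was the library numbered 2, for all 3 genes.

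Csf1r (chr18:61100598-61132149, plus strand), the receptor for the growth factors Csf1 and Il34, read 194 and 295 in mutant spleens, against 192 and 343 in control spleens. Mutant livers had 136 and 210 and control livers 165 and 227. In brain both mutants, at 30.7 and 28.7, lay just below both controls, at 31.6 and 42.4, a gap smaller than the distance between the 2 controls. In both spleen and liver Csf1r was higher in the library numbered 2 of each genotype. Its exons overlap those of Hmgxb3 on the other strand, and without a stated use of strand the reads of the 2 genes cannot be told apart there.

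P2ry12 (chr3:59216272-59262871, minus strand), a receptor for ADP on microglia and platelets, had 49 to 196 reads per organ library. Mutant brains had a signal of 3.17 and 2.99, from 49 and 67 reads, and control brains 4.31 and 6.64, from 79 and 155 reads. Both mutants were below both controls. Spleen gave 7.96 and 10.5 in mutants, against 4.48 and 9.66 in controls, and liver 2.71 and 3.26 in mutants, against 4.26 and 2.49 in controls, with overlapping ranges in each. Its exons overlap those of Med12l, which is read from the opposite strand. Med12l averaged 140 in mutant brains, against 135 in control brains, and 103 in mutant spleens, against 60.3 in control spleens, and its part in the P2ry12 counts was not tested.

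Cx3cr1 (chr9:119901616-120069879, minus strand), the receptor for the membrane-bound chemokine Cx3cl1, was lower in each mutant than in each control in all 3 organs. Mutant livers had 0.666 and 3.19, from 14 and 93 reads, and control livers 9.16 and 8.12, from 144 and 202 reads. Mutant spleens had 17.0 and 14.4 and control spleens 28.8 and 32.0. Mutant brains had 3.62 and 4.95 and control brains 7.15 and 6.26. The mutant and control ranges did not touch in any organ, and the 2 mutant livers were themselves far apart. Spleen mutant 1, the library with albumin reads and the most genes, was the mutant nearer to the controls, and without it the log2 fold change in spleen was -1.05, against -0.93 with it. Its exons overlap those of an antisense gene, Gm33858, which was not analysed here. In fibroblasts the gene had 12 to 60 reads per library, a signal of 2.78, 0.719 and 1.55 in mutants and 1.35, 0.598 and 1.47 in controls.

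Tmem119 (chr5:113793729-113800516, minus strand) had its highest levels outside the macrophage tissues. Mutant fibroblasts read 204, 192 and 141 and control fibroblasts 138, 182 and 117, where the other 8 members were at most 2.78. Brain gave 6.27 and 3.70 in mutants, against 2.84 and 4.93 in controls. Its level was thus high in cells with almost no other member, and the gene is also known from osteoblasts. Spleen read 14.0 and 16.4 in mutants, against 11.0 and 19.1 in controls. Liver read 5.28 and 5.49 in mutants, against 4.01 and 4.38 in controls, with both mutants above both controls.

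Siglech (chr7:55768178-55778925, plus strand), a sialic acid-binding lectin of microglia and plasmacytoid dendritic cells, read 1.03 and 1.47 in mutant brains, against 1.58 and 2.44 in control brains. Spleen gave 5.78 and 7.99 in mutants, against 5.93 and 8.29 in controls, and liver 1.48 and 1.85 in mutants, against 2.16 and 1.57 in controls. Brain mutants were below brain controls, on 16 to 57 reads per library, and the other ranges overlapped. Trem2 (chr17:48346401-48354147, plus strand), a lipid-sensing receptor that signals through the adaptor Tyrobp, was low throughout. It read 2.26 and 2.90 in mutant brains, against 2.02 and 2.79 in control brains. Mutant livers had 1.24 and 4.19, against 2.35 and 3.42 in control livers, and both pairs overlapped. In spleen both mutants, at 2.03 and 2.52, lay below both controls, at 3.10 and 4.23, on 27 to 71 reads per library.

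**Figure D1:**
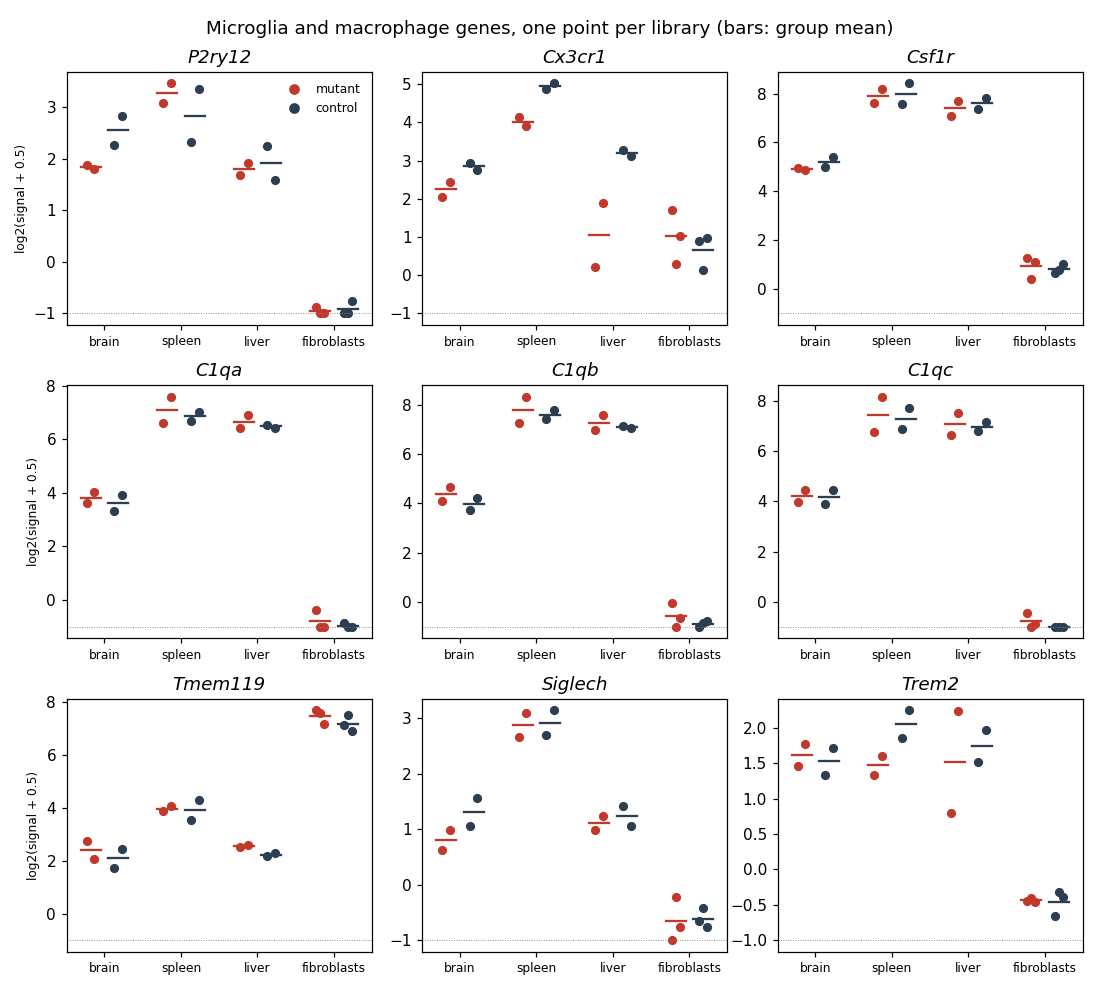
Each panel plots 1 member as log2(signal + 0.5), with a point per library and a bar at the group mean, in brain, spleen, liver and fibroblasts, mutants to the left of controls; the dotted line is a signal of 0. The C1q genes and Csf1r sit higher in spleen and liver than in brain, Tmem119 is highest in fibroblasts, and the mutant points of Cx3cr1 lie below the control points in each organ.

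Mutant and control were compared in each tissue by limma on log2(signal + 0.5), for genes whose mean signal over the table was 1 or more, with Benjamini-Hochberg adjustment and a threshold of 0.05. In brain none of the 9 members passed, where 0.0237% of all 16909 genes tested did (0.0177% higher and 0.00591% lower in mutants). Cx3cr1 had a log2 fold change of -0.60 (SE 0.23; adjusted p = 1.00 by limma) and P2ry12 of -0.71 (SE 0.26; adjusted p = 1.00 by limma). These 2 were the members with an unadjusted p under 0.05 in brain, where 4.07% of all genes had one (1.99% lower in mutants). Every mutant was below every control for 4 members (P2ry12, Cx3cr1, Csf1r and Siglech), as for 16.3% of all genes, and for none was every mutant above, against 13.8% of all genes. The C1q chains had log2 fold changes of 0.18 (C1qa, SE 0.24), 0.39 (C1qb, SE 0.23) and 0.01 (C1qc, SE 0.23), Csf1r of -0.30 (SE 0.16), Tmem119 of 0.32 (SE 0.32), Siglech of -0.51 (SE 0.30) and Trem2 of 0.09 (SE 0.27). The median over the 9 members was 0.01, beside -0.01 over all genes.

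In spleen none of the 9 passed, and neither did any of the 16578 genes tested (0%). Cx3cr1 had a log2 fold change of -0.93 (SE 0.28; adjusted p = 0.70 by limma) and was the member with an unadjusted p under 0.05, where 6.27% of all genes had one (1.57% lower in mutants). Cx3cr1 and Trem2 were the members with every mutant below every control, as for 21.9% of all genes, and Trem2 had a log2 fold change of -0.58 (SE 0.38). P2ry12 stood at 0.44 (SE 0.43), and the other 6 between -0.10 and 0.23 with SEs of 0.35 to 0.52. The median was 0.06, beside -0.07 over all genes.

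In liver none of the 9 passed, and none of the 15075 genes tested did (0%). Cx3cr1 had a log2 fold change of -2.14 (SE 0.58; adjusted p = 0.65 by limma) and was again the member with an unadjusted p under 0.05, where 6.67% of all genes had one (2.28% lower in mutants). It was the member with every mutant below every control, as for 13.1% of all genes, and Tmem119 (log2 fold change 0.33, SE 0.23) the member with every mutant above, as for 23.5%. The other 7 lay between -0.23 and 0.18, with SEs of 0.26 to 0.53, and the median of the 9 was -0.12, beside 0.05 over all genes.

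DESeq2 and edgeR, fitted to the whole reads recovered from the signal, also passed none of the 9 in any tissue. DESeq2 passed 0.242% of all genes in brain, 1.05% in spleen, 1.4% in liver and 0.0229% in fibroblasts, and came closest for Cx3cr1 in liver (adjusted p = 0.080). That gene passed in liver by limma when the libraries of all tissues shared 1 estimate of the spread (adjusted p = 0.044) and by edgeR with no filter on low counts (adjusted p = 5.2e-06), while over its 15 alternatives the adjusted p ran up to 1.00. In liver the fit over all tissues called 278 of 15075 genes and edgeR with no filter 641 of 32747. The main limma fit and edgeR with the filter called 0 of 15075. Over the 15 alternatives the log2 fold change of Cx3cr1 in liver stayed between -2.97 and -1.31. In spleen it stayed between -1.05 and -0.81 and in brain between -0.80 and -0.40. Of the 13272 genes tested in all 3 organs, 1% had every mutant below every control in each organ, as Cx3cr1 did, and 1.54% had every mutant above.

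In fibroblasts 3 members passed the filter on low values, and none passed the test, where 0% of 13077 genes did and 0.971% had an unadjusted p under 0.05, none of them a member. Tmem119 had a log2 fold change of 0.30 (SE 0.22; adjusted p = 1.00 by limma), Cx3cr1 of 0.35 (SE 0.43) and Csf1r of 0.11 (SE 0.29). The groups overlapped for all 3, while every mutant was above every control for 2.07% of all genes.

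**Figure D2:**
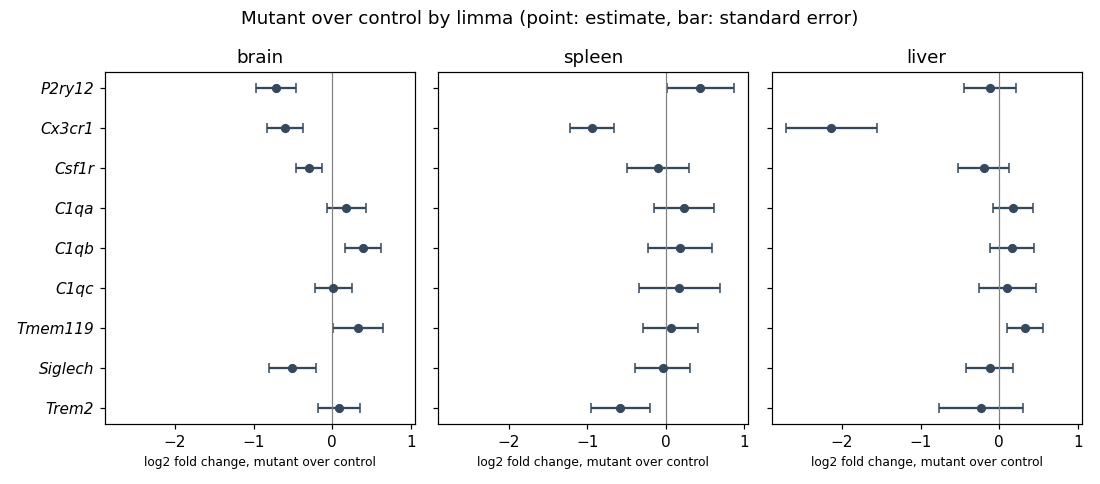
Points give the limma log2 fold change, mutant over control, of each member in brain, spleen and liver, and bars its SE. Cx3cr1 lies left of 0 in each organ, at -0.60, -0.93 and -2.14, and the 3 C1q genes lie at or right of 0 by less than 0.40.

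Cx3cr1 was also set against C1q within each library, a ratio that no scaling of the library can change. Per 100 reads of the 3 C1q genes there were 8.40 and 8.04 reads of Cx3cr1 in mutant brains, against 19.4 and 11.5 in control brains. Mutant spleens had 4.82 and 1.81 and control spleens 7.43 and 5.74, and mutant livers 0.215 and 0.653 and control livers 2.66 and 2.26. In each organ both mutants were below both controls. Set against Csf1r per kilobase instead, the groups overlapped in brain, at 15.1 and 22.1 in mutants, against 29.0 and 18.9 in controls. By that ratio both spleen mutants (11.3 and 6.25) were below both spleen controls (19.2 and 12.0). Liver mutants (0.628 and 1.95) were likewise below liver controls (7.10 and 4.58). In bulk tissue, fewer cells of a type and less RNA per cell cannot be told apart.

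Genes of other cells that carry Cx3cr1 or P2ry12 were looked at beside these values. The 10 monocyte markers summed to 1013 to 1626 in mutant spleens and 1076 to 1167 in control spleens, to 6738 to 8048 in mutant livers and 7744 to 8231 in control livers, and to 570 to 631 in mutant brains and 566 to 755 in control brains. The liver sum was mostly Fn1, fibronectin, which hepatocytes and fibroblasts also make and which read 6205 and 7533 in mutant livers, against 7264 and 7638 in control livers, and the list summed to 7373 to 9621 in fibroblasts. Single genes of the list differed in direction. Ccr2, a chemokine receptor of monocytes, read 2.95 and 4.12 in mutant livers, against 5.41 and 6.71 in control livers (log2 fold change -0.71, SE 0.28; adjusted p = 0.75 by limma). Treml4, a receptor of a subset of monocytes and of splenic macrophages, read 4.19 and 8.10 in mutant livers, against 10.5 and 19.8 in control livers (log2 fold change -1.23, SE 0.44; adjusted p = 0.73 by limma). Ace lay higher in mutants, with log2 fold changes of 1.82 in liver and 1.49 in spleen (adjusted p = 0.68 and 0.70 by limma), and Ly6c2 stood at 0.14 in liver and -0.02 in spleen. Limma called none of the 10, and DESeq2 called 1 in liver (Nr4a1, higher in mutants). The 10 platelet and megakaryocyte markers summed to 90.8 to 103 in mutant brains and 82.1 to 92.1 in control brains, with a median log2 fold change of 0.11 over the 4 tested. In spleen they summed to 183 to 557 in mutants and 291 to 588 in controls, with a median of -0.57 over 10. Whether these cells took part in the differences of Cx3cr1 and P2ry12 was not tested.

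Whether the mutant effect on a member differed between organs was tested in 1 limma fit over the 12 organ libraries and 13272 genes. No member passed in any of the 3 contrasts, where 0% of genes did for brain minus spleen, 0.0226% for brain minus liver and 0.0151% for spleen minus liver. For Cx3cr1 the effect in brain minus that in liver was 1.53 (SE 0.61; adjusted p = 1.00 by limma). Without liver mutant 2 it was 2.37, which rests on liver mutant 1 with 14 reads as the only mutant liver. For P2ry12 the effect in brain minus that in spleen was -1.15 (SE 0.52; adjusted p = 0.89 by limma). Neither difference between organs is thus established with all libraries in the fit.

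The levels were then set side by side across organs. The 4 tables were normalized separately, so that levels across organs are described and not tested. In control libraries C1qb averaged 15.4 ± 3.52 in brain, 194 ± 35.0 in spleen and 137 ± 4.73 in liver (SD, n = 2 each). Spleen was 12.6-fold and liver 8.87-fold above brain for this gene, and for Csf1r 7.22-fold and 5.30-fold. P2ry12 averaged 5.48 ± 1.65 in brain, 7.07 ± 3.66 in spleen and 3.38 ± 1.25 in liver (SD, n = 2 each). Spleen and brain overlapped, and the mean of brain was 1.62-fold that of liver. The lower brain control, at 4.31, was barely above the higher liver control, at 4.26. As plain reads per M these 2 libraries had 4.22 and 4.25, so that brain and liver overlapped. Mutant brains, at 3.17 and 2.99, lay within the range of mutant livers, at 2.71 and 3.26. Per kilobase of exon, the order in mutant brains was C1qb at 18.9, C1qa at 13.1, C1qc at 9.37, Csf1r at 5.14, Tmem119 at 2.15, P2ry12 at 1.21, Cx3cr1 at 0.951, Trem2 at 0.521 and Siglech at 0.370. In control brains it was C1qb at 14.2, C1qa at 11.7, C1qc at 9.33, Csf1r at 6.41, P2ry12 at 2.15, Tmem119 at 1.68, Cx3cr1 at 1.49, Siglech at 0.595 and Trem2 at 0.486. The places of Tmem119 and P2ry12 and those of Trem2 and Siglech were thus exchanged between the genotypes. Over the 4 brain libraries each C1q gene lay above Csf1r, Csf1r above the other 5, and Tmem119, P2ry12 and Cx3cr1 above Siglech and Trem2, without overlap, and neighbours within these groups overlapped. With the longest transcript as the length, C1qc averaged 15.0 over the 4 brain libraries, above C1qa at 12.4.

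Set against Csf1r of the same library and per kilobase, most of the microglial markers stood higher in brain. The ratio also carries the level of Csf1r, which was 7.22-fold higher in control spleen and 5.30-fold higher in control liver than in brain. As signal, control spleen averaged above control brain for Tmem119 (3.88-fold), Siglech (3.53-fold), Trem2 (1.53-fold) and P2ry12 (1.29-fold). P2ry12 stood at 23.3 and 23.6 per 100 of Csf1r in mutant brains, against 30.9 and 35.5 in control brains, while the 4 spleen libraries ranged from 5.29 to 9.31 and the 4 liver libraries from 2.49 to 5.84. Tmem119 ranged from 22.4 to 50.8 in brain, 13.9 to 18.1 in spleen and 4.81 to 9.69 in liver. Trem2 ranged from 7.46 to 11.8 in brain, 0.999 to 1.89 in spleen and 1.06 to 2.33 in liver. For these 3 genes, and for Siglech at 5.74 to 9.84 in brain, 4.13 to 5.27 in spleen and 1.18 to 2.23 in liver, each brain library was above each spleen and liver library. Cx3cr1 ranged from 15.1 to 29.0 in brain and 6.25 to 19.2 in spleen, which overlap, and from 0.628 to 7.10 in liver. The C1q genes did not separate the organs, with C1qb at 217 to 456 in brain, 339 to 571 in spleen and 312 to 487 in liver.

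**Figure D3:**
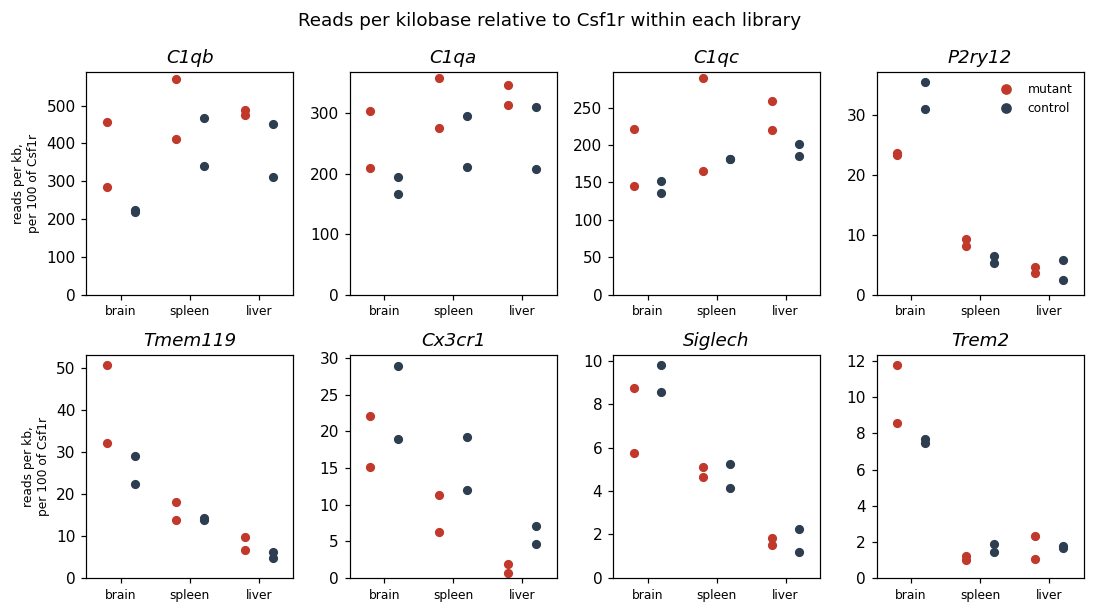
Each panel plots 1 member as reads per kilobase of exon per 100 of Csf1r in the same library, with a point per library, mutants to the left of controls. By this ratio P2ry12, Tmem119, Siglech and Trem2 are higher in each brain library than in any spleen or liver library, and the C1q genes overlap between organs. Csf1r itself is lower in brain than in spleen and liver.

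The genes with patterns most like those of C1qb and P2ry12 were found by Pearson's correlation of log2(signal + 0.5) over the 18 libraries among 19818 genes, a measure that mainly follows the 4 tissues. For C1qb they were C1qa (r = 0.999), C1qc (0.998), Csf1r (0.996), the haemoglobin gene Hba-a1 (0.992) and the lysosomal protease Ctss (0.991). For P2ry12 they were Atp4a (0.986), Rph3al (0.983), Ccnjl (0.981), Ipcef1 (0.980) and Slc7a8 (0.980). No other member was among the 5 genes closest to P2ry12.

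The ligands and adaptors of the receptors were followed next. Cx3cl1, the ligand of Cx3cr1, read 136 and 154 in mutant brains, against 157 and 164 in control brains. In spleen it read 9.01 and 4.02 in mutants, against 2.62 and 2.33 in controls (log2 fold change 1.14, SE 0.45; adjusted p = 0.78 by limma). In brain, Cx3cl1 of the mutants was just below that of the controls, and in spleen both mutants lay above both controls, without passing the test. Csf1 read 295 and 271 in mutant spleens, against 160 and 209 in control spleens (log2 fold change 0.63, SE 0.30; adjusted p = 0.78 by limma), and Tyrobp, the adaptor of Trem2 and Siglech, 3.17 and 4.19 in mutant brains, against 3.82 and 3.39 in control brains. Tgfb1, a growth factor that microglia require, read 43.8 and 21.6 in mutant livers, against 13.4 and 12.1 in control livers (log2 fold change 1.24, SE 0.38; adjusted p = 0.67 by limma). None of the 12 genes of this list passed in any organ, and the medians were -0.06 in brain, 0.16 in spleen and 0.03 in liver.

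Of 15 further homeostatic microglia genes 12 could be tested in brain and none passed, with 4 above and 8 below 0 and a median of -0.16. Of all genes tested in brain 46.1% lay above 0, with a median of -0.01. Sall1, a transcription factor that maintains microglial identity, had a log2 fold change of -0.35 (SE 0.19; adjusted p = 1.00 by limma). In spleen Olfml3 read 31.6 and 38.1 in mutants, against 74.6 and 71.5 in controls (log2 fold change -1.06, SE 0.27; adjusted p = 0.53 by limma and 0.13 by DESeq2). It had an unadjusted p under 0.05, as did Rnase4 in spleen at 1.24 (SE 0.40; adjusted p = 0.72 by limma). Of the 14 myeloid transcription factors none passed in any organ, and Spi1 lay within the spread of its controls, at 2.45 and 2.14 in mutant brains, against 2.02 and 2.70 in control brains. Cebpb had log2 fold changes of 0.97 in spleen (limma adjusted p = 0.73) and 1.03 in liver (limma adjusted p = 0.68).

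Among 15 complement genes around C1q none passed in any organ. C4b, the next component of the classical pathway, had a log2 fold change of -0.79 in brain (limma adjusted p = 1.00) and -0.75 in liver (limma adjusted p = 0.77). The proteases C1ra and C1s1, which form the C1 complex with C1q, were below the filter in brain. C1ra read 66.7 and 62.8 in mutant livers, against 55.4 and 57.4 in control livers, and C1s1 139 and 108 in mutant livers, against 139 and 104 in control livers. Over the list 3 of 12 genes lay above 0 in brain, 11 of 15 in spleen and 9 of 14 in liver, where 46.1%, 43.5% and 55.9% of all genes did.

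Among 14 general macrophage genes, Cd14, a co-receptor for bacterial lipopolysaccharide, was several times higher in the mutants of liver. It read 57.4 and 22.6 in mutant livers, against 4.77 and 5.99 in control livers (log2 fold change 2.64, SE 0.47; adjusted p = 0.45 by limma and 4.1e-05 by DESeq2). In spleen it read 29.7 and 12.9 in mutants, against 6.00 and 5.67 in controls (log2 fold change 1.67, SE 0.43; adjusted p = 0.57 by limma and 0.016 by DESeq2). DESeq2 thus passed it in both organs and limma in neither. Mertk, a receptor for the uptake of dead cells, read 148 and 159 in mutant spleens, against 40.9 and 80.2 in control spleens (log2 fold change 1.41, SE 0.37; adjusted p = 0.57 by limma and 0.056 by DESeq2). In brain it read 14.0 and 10.7 in mutants, against 6.12 and 8.02 in controls (log2 fold change 0.76, SE 0.22; adjusted p = 0.92 by limma). The list as a whole did not stand out, with medians of -0.09 in brain, 0.04 in spleen and 0.10 in liver. Fcgr1 and Aif1 had log2 fold changes of -0.81 and -0.85 in liver (adjusted p = 0.75 and 0.84 by limma). Of the 14 genes 9 lay above 0 and 5 below in liver, where 55.9% of all genes lay above. Adgre1, which encodes the macrophage antigen F4/80, read 28.9 and 30.2 in mutant livers, against 34.9 and 39.1 in control livers.

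Markers of the resident macrophage types gave no call by limma. The 11 Kupffer cell markers had a median of -0.09 in liver, where Clec4f read 46.9 and 55.8 in mutants, against 72.3 and 45.7 in controls and Timd4 12.5 and 9.37 in mutants, against 10.6 and 17.8 in controls. The 10 markers of splenic macrophages had a median of -0.27 over 9 tested in spleen, with Treml4 at -0.89 (limma adjusted p = 0.78). Among 10 markers of macrophages at the borders of the brain, Lyve1, which lymphatic and sinusoidal endothelium also carries, read 26.4 and 11.1 in mutant spleens, against 5.52 and 3.04 in control spleens (log2 fold change 1.94, SE 0.49; adjusted p = 0.54 by limma and 0.0089 by DESeq2). In liver it read 185 and 204 in mutants, against 109 and 105 in controls (log2 fold change 0.86, SE 0.21; adjusted p = 0.61 by limma). Of the 8 endothelial markers all lay above 0 in spleen, with a median of 0.61, and 7 in liver, with a median of 0.30. Of all genes 43.5% lay above 0 in spleen (median -0.07) and 55.9% in liver (median 0.05). The part of endothelium in the values of Lyve1, and of the other genes of the border list, was not tested. The border list as a whole had medians of 0.04 in brain, 0.25 in spleen (6 of 10 tested above 0, against 43.5% of all genes) and 0.41 in liver (6 of 8 above 0, against 55.9%). In liver it summed to 677 to 837 in mutants and 517 to 539 in controls, with Mrc1, the mannose receptor, at 150 and 228 in mutants, against 122 and 101 in controls (log2 fold change 0.73, SE 0.29; adjusted p = 0.76 by limma). In brain Lyve1 had a log2 fold change of 0.25.

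Of 15 genes of activated microglia, a state known from developing and diseased brain, none passed by limma. DESeq2 passed Igf1 and Fabp5 in liver, both lower in mutants. Igf1, a growth factor also made by hepatocytes, read 17.6 and 18.8 in mutant livers, against 57.6 and 45.3 in control livers (log2 fold change -1.46, SE 0.22; adjusted p = 0.37 by limma and 6.5e-04 by DESeq2). In brain it read 12.5 and 19.2 in mutants, against 21.2 and 20.3 in controls (log2 fold change -0.41, SE 0.21; adjusted p = 1.00 by limma). The medians of the list were -0.10 in brain, -0.01 in spleen and -0.08 in liver. The 10 markers of plasmacytoid dendritic cells, which share Siglech with microglia, had a median of -0.15 in spleen over 9 tested, and Siglech itself stood at -0.04 (SE 0.35) there. Osteoblast and matrix fibroblast markers, followed because of Tmem119, had a median of 0.67 in spleen, 0.35 in liver and 0.35 in fibroblasts, where Tmem119 stood at 0.06, 0.33 and 0.30.

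**Figure D4:**
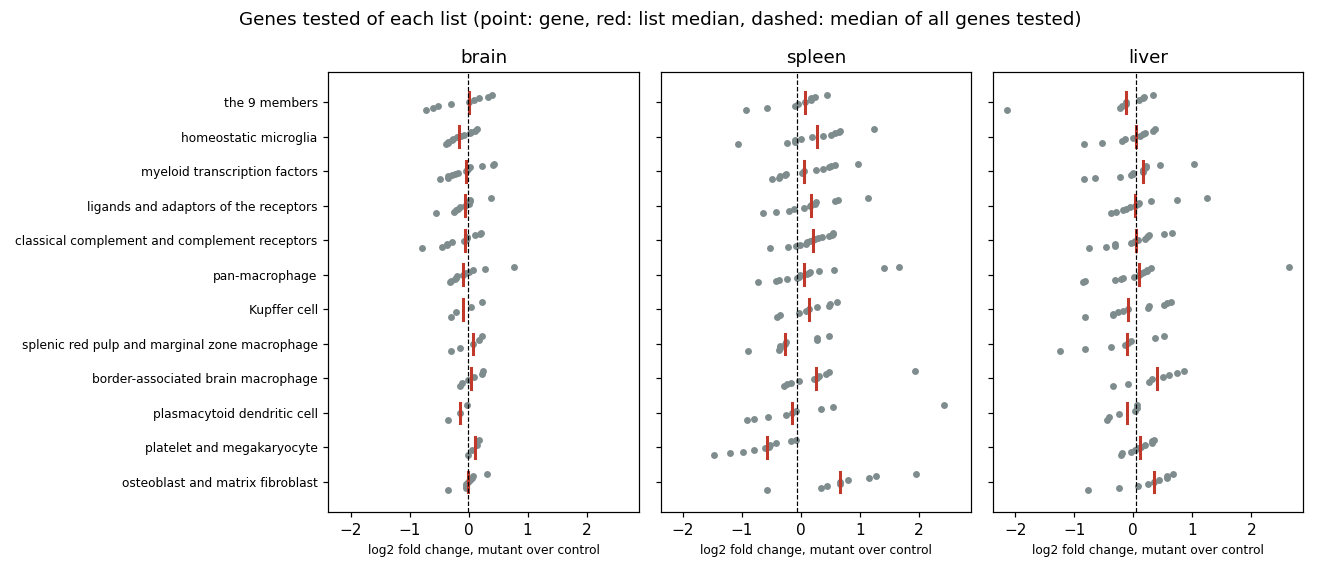
Each row is 1 of the macrophage and neighbouring lists named on the axis and each point the limma log2 fold change, mutant over control, of a gene of that list that could be tested in brain, spleen or liver; red bars are list medians and the dashed line is the median of all genes. The medians of the 9 members, 0.01, 0.06 and -0.12, lie close to those of all genes, and Cx3cr1 at -2.14 and Cd14 at 2.64 are the outermost points drawn for liver, where the hepatocyte list, in which Tat reached 3.31, is not drawn.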

How the data were processed

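RNA of 18 libraries was analysed. Per the labels' protocols, the RNA was extracted with Trizol and ribosomal RNA was removed. The deposited signal values are scaled counts, made by the authors with HTSeq 0.6.1 and edgeR on GRCm38, per the submitters' processing notes, with aligner, annotation release and strand setting not given in the sources used here. Each of the 4 tables was normalized on its own. All nonzero values were whole multiples of the value of 1 read (tolerance 0.05), which gave whole reads. Of 46078 identifiers, 45229 matched GENCODE mouse release 21. The other 849, at most 0.179% of reads, were left out before every test. Per tissue, log2(signal + 0.5) of genes with a mean of at least 1 was fitted with limma 3.58.1 (trend, two-sided, Benjamini-Hochberg) in R 4.3.3. edgeR 4.0.16 and DESeq2 1.42.0 on the recovered reads, other pseudocounts, filters and scalings, a replicate block and leaving out each library were alternatives. The scripts were tested on simulated counts. Named are the members, up to 3 genes with the smallest p per list and those called; other genes were chosen after their values were seen. The members and lists were chosen with earlier results of these data known.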

Additional observations from a re-analysis of the deposited data

How the results depend on the processing

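No member was called under any alternative in brain, spleen or fibroblasts. In liver 1 member, Cx3cr1, was called by edgeR with no filter and by 1 limma fit over all tissues. The median over the members moved to 0.14 in spleen without the TMM factor and to 0.10 in liver at a mean of at least 5, where 5 members were tested. Without the TMM factor the log2 fold change of Siglech in spleen was 0.038, and with quantile normalization that of Csf1r in spleen was 0.034. For brain minus liver Tmem119 gave 0.00047 at a pseudocount of 0.1 and 0.029 without the TMM factor, and C1qa gave -0.0054 at a pseudocount of 1. The cause was not tested. Leaving out 1 library at a time moved the median of the members from -0.27 to 0.28 in brain, -0.36 to 0.36 in spleen, -0.25 to 0.35 in liver and -0.0053 to 0.37 in fibroblasts. In the organs such a fit leaves 1 library in a group. The log2 fold changes whose sign turned on 1 library were, as ranges without 1 library, in brain, C1qa -0.13 to 0.49, C1qc -0.27 to 0.30, Tmem119 -0.027 to 0.67 and Trem2 -0.10 to 0.28. In spleen they were C1qa -0.25 to 0.72, C1qb -0.36 to 0.72, C1qc -0.53 to 0.88, Csf1r -0.52 to 0.31, P2ry12 -0.074 to 0.95, Siglech -0.27 to 0.18 and Tmem119 -0.32 to 0.44. In liver they were C1qa -0.061 to 0.42, C1qb -0.13 to 0.46, C1qc -0.33 to 0.53, Csf1r -0.51 to 0.11, P2ry12 -0.45 to 0.22, Siglech -0.30 to 0.060 and Trem2 -0.94 to 0.49. In fibroblasts they were Csf1r -0.060 to 0.37 and Cx3cr1 -0.0053 to 0.71. For brain minus spleen they were C1qa -0.54 to 0.43, C1qb -0.32 to 0.75, C1qc -0.86 to 0.54, Csf1r -0.61 to 0.22 and Tmem119 -0.12 to 0.64. For brain minus liver they were C1qa -0.31 to 0.31, C1qb -0.063 to 0.53, C1qc -0.52 to 0.34, Csf1r -0.41 to 0.21, Tmem119 -0.35 to 0.35 and Trem2 -0.40 to 1.03. For spleen minus liver they were C1qa -0.43 to 0.54, C1qb -0.52 to 0.56, C1qc -0.63 to 0.77, Csf1r -0.32 to 0.51, Siglech -0.15 to 0.31, Tmem119 -0.65 to 0.12 and Trem2 -1.07 to 0.36. Over all genes limma called 4, 0, 0 and 0 in brain, spleen, liver and fibroblasts, DESeq2 41, 174, 211 and 3, limma with no filter 13, 22, 11 and 0, edgeR with no filter 150, 625, 641 and 0, and the fit over all tissues 7, 174, 278 and 1. With the replicate number as a block limma called 4, 356, 60 and 0 genes and no member. Same-numbered libraries correlated at 0.078 in brain, -0.026 in spleen and 0.58 in liver, and at -0.080, 0.43 and 0.023 in fibroblasts, where not every library correlated best with its own number. The labels do not say what a number marks, and the main fits, with 0 genes called in spleen and liver, did not block by it. Liver libraries, and in spleen and liver the C1q shares, went with the number. P2ry12, Siglech and Trem2 rest on 16 to 196 reads per organ library, which limits what 2 against 2 libraries can show.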
